A study of Rattus norvegicus with 32 samples.

Results

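Hox genes encode homeodomain transcription factors that lie in the clusters A, B, C and D and give cells along the body axis a record of their position. The genes described here are those with a probe set listing exactly 1 gene symbol made of Hox, a cluster letter a to d and a paralogue number. There were 22 such genes, with 1 probe set each, among 15316 probe sets for 14511 genes. The RefSeq table of the rat genome (assembly GRCr8) lists 39 Hox genes, so 17 are not analysed here. The 22 comprised 5 of 11 genes of cluster A (Hoxa2, Hoxa4, Hoxa5, Hoxa7 and Hoxa11) and 7 of 10 of cluster B (Hoxb2, Hoxb3, Hoxb4, Hoxb7, Hoxb8, Hoxb9 and Hoxb13). They further comprised 4 of 9 genes of cluster C (Hoxc4, Hoxc5, Hoxc9 and Hoxc12) and 6 of 9 of cluster D (Hoxd1, Hoxd3, Hoxd4, Hoxd9, Hoxd10 and Hoxd13).

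The study set cultured rat thymic epithelial cells (TEC), the stromal cells that support T cell development, against cultured hair follicle (HF) cells, before and after transplantation into the skin of nude mice. All donors were Sprague-Dawley rats that express enhanced green fluorescent protein throughout the body, and all cultures were grown on irradiated 3T3-J2 mouse fibroblasts. There were 16 cultures with 2 arrays each. The ungrafted TEC cultures were PRE16cl11_VII (donor at embryonic day 16, E16), PRP1cl11_VII (postnatal day 1, P1), PRP4mo_bulk and PRP4mo_Cl09 (4 months). The TEC cultures recovered after a first transplantation were Clone_217 and Clone_218 (E16), Clone_57 (P1) and Clone_907 (4 months), and those after a second were Clone_287 and Clone_347 (E16), Clone_194 (P1) and Clone_354 (4 months). The HF cultures were YR219P5_RC and Clone_54 after a first transplantation and YR219P5_Bulk_V and YR219P5cl7 without grafting, all labelled P5 with no further explanation. The labels describe 11 cultures as clones and 5 as bulk, namely PRP4mo_bulk, Clone_907, Clone_354, YR219P5_Bulk_V and YR219P5_RC. No label ties a grafted culture to the ungrafted culture it came from, and none says which cultures share an animal, so the p-values measure the spread between these cultures. Tissue of origin and donor stage label cannot be told apart, because no TEC culture is labelled P5.

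Genes of low paralogue number are active in anterior regions, such as the hindbrain, the pharyngeal arches and the neck, and genes of high number in posterior regions and distal limbs. The thymic epithelium develops from the third pharyngeal pouch, an anterior endodermal region, and the follicle epithelium of the skin develops from ectoderm. Fibroblasts of adult skin keep part of this regional pattern in culture. Hox proteins bind DNA together with the cofactors Pbx and Meis, retinoic acid induces genes at the anterior end of the clusters, and Polycomb proteins hold silent members in a repressed state.

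RefSeq promoter sequences (assembly GRCr8, 250 bases before to 50 after the start of the gene) were matched by symbol for 11 of the 22 genes, among them 4 of the 6 whose differences passed a test below. These 4 are shown because they are the genes with a difference to read beside a promoter, and Hoxa5 and Hoxb7 are named only. Each is written 5′ to 3′ on the strand of the gene. Capitals mark matches, on either strand, to the TATA box TATAAA, the homeodomain core TAATTA, the Pbx and Hox composite TGATNNAT, the retinoid receptor half-site AGGTCA or the GC box GGGCGG.
Hoxa2, chr4:82595643-82595942, minus strand: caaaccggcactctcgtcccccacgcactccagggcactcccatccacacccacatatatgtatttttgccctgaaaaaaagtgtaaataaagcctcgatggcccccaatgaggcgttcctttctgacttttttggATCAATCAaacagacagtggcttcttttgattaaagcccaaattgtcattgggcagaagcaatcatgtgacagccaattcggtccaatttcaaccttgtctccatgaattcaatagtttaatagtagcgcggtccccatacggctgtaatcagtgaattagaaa
Hoxa7, chr4:82648192-82648491, minus strand: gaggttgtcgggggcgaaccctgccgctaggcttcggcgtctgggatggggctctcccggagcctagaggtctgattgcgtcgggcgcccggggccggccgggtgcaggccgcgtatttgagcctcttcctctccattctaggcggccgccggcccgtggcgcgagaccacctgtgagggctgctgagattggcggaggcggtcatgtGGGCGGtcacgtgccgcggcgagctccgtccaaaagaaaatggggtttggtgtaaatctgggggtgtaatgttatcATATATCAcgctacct
Hoxc4, chr7:136048809-136049108, plus strand: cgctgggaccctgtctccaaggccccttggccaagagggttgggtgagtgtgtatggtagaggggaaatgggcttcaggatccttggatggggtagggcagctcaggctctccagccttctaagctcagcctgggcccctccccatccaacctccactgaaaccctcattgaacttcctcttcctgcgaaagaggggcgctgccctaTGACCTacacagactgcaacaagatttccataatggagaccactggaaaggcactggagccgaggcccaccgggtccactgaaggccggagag
Hoxd4, chr3:80021636-80021935, plus strand: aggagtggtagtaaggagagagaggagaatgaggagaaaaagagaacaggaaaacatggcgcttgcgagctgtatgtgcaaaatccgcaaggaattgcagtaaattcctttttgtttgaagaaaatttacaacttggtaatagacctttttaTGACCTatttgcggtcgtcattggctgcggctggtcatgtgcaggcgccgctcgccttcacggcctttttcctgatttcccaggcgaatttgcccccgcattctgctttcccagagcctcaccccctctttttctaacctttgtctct
The Hoxa2 and Hoxa7 windows each held 1 match to TGATNNAT, on the opposite strand, and they were the 2 of 11 Hox windows with one. Of 33469 rat promoter windows of the same length, 9.1% held that motif. Hoxc4, Hoxd4 and Hoxd10 were the 3 of 11 with AGGTCA, which 16.2% of all windows held. GGGCGG was found in 6 of the 11, Hoxa7 included, and in 33.1% of all windows. TATAAA was found in 1, Hoxd13, against 14.2% of all windows, and TAATTA in 0 of 11, against 5.36%. The Hoxa7 window was rich in G and C (64.3%), and the Hoxa2 window less so (44.7%). Hoxc4 (59%) and Hoxd4 (47.3%) lay between them.

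The values are log2 probe set signals, called levels here. A level can be compared between cultures for 1 gene but not between genes, and the array gives no detection call, so the low levels of many Hox genes were not shown to lie above background. A moderated F test in limma over the 32 arrays asked which genes varied between cultures by more than the 2 arrays of a culture did. It called 7 of the 22 Hox genes, Hoxa2, Hoxa5, Hoxa7, Hoxb7, Hoxc4, Hoxc9 and Hoxd10, against 61.2% of all probe sets tested. Their ranges over the 16 culture means lay between 0.686 and 2.51 on the log2 scale. The largest ranges belonged to Hoxa2 (2.51), Hoxa5 (2.38), Hoxb7 (1.77), Hoxa7 (1.65), Hoxc4 (1.64) and Hoxd10 (0.823). The other 15 genes ranged over 0.487 to 0.813, with a spread between the arrays of a culture of 0.172 to 0.326 (SD). By paralogue number, 2 of the 9 measured genes of groups 1 to 4 varied, 3 of the 5 of groups 5 to 8, and 2 of the 8 of groups 9 to 13. With both arrays of YR219P5_RC left out, the test called the same 7 genes.

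**Figure D1:**
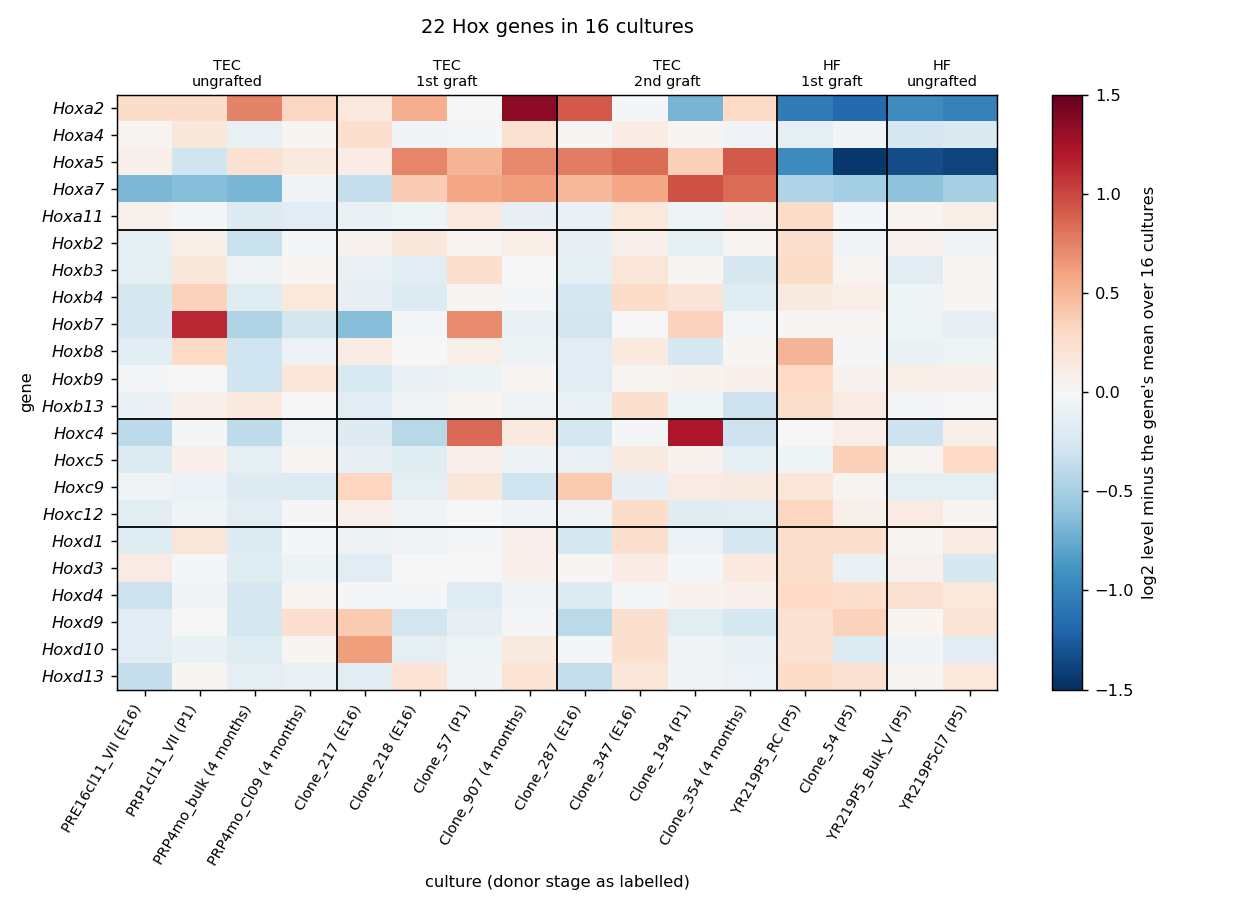
Level of each of the 22 Hox genes in each of the 16 cultures, as the log2 level minus the mean of the gene over all cultures; rows run by cluster and paralogue number, columns by group, with the donor stage label in brackets. Hoxa2 and Hoxa5 are lowest in the 4 HF cultures, Hoxa7 is highest in grafted TEC cultures, and most rows of clusters B, C and D are pale throughout.

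One array stood apart. The median of all probe sets was 5.78 on array 1 of YR219P5_RC and 5.29 to 5.55 on all the others. For 21 of the 22 Hox genes this array read higher than array 2 of the same culture, and 11 Hox genes, all among the 15 that the F test did not call, had their highest level in that culture. Results that use the HF cultures are therefore given with and without that array where it changes a call. The labelled tissues were checked against their markers. Of 12 probe sets for 9 thymic epithelial markers, 4 were higher in TEC cultures by limma on the average of ungrafted and once-grafted states and 8 did not pass. Of all probe sets, 4.17% were called there. The 4 belong to the simple epithelial keratin Krt8 and to Isl1 and Pax9, transcription factors of the pharyngeal pouches. Foxn1, the master regulator of thymic epithelium, did not pass, and averaged 5.83 in once-grafted TEC against 6.10 in once-grafted HF cultures, and 5.84 in ungrafted TEC against 5.58 in ungrafted HF cultures. Dll4 averaged 4.94 and Ccl25 3.45 in ungrafted TEC cultures, against 5.11 for Dll4 and 3.49 for Ccl25 in ungrafted HF cultures. Of 5 follicle and keratinocyte markers, the stem cell marker Lgr5 was lower in TEC cultures (-0.90 ± 0.21, adjusted p = 0.0314) and 4 did not pass. The basal keratin Krt14 lay between 12.95 and 13.35 in all cultures. The leukocyte marker Ptprc stayed between 3.16 and 3.88.

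Tissue of origin was read first as the average of the ungrafted and once-grafted states, which both tissues have. Hoxa5 and Hoxa2 were higher in TEC than in HF cultures, Hoxd4 was lower, and 19 Hox genes did not pass the test. These 3 of 22 calls stood against 4.17% of all probe sets. At an unadjusted p under 0.05 there were 8 Hox genes of 22, and 3541 of the 15316 probe sets. The median difference over the 22 genes was -0.07, and that over all probe sets was -0.06. With centred arrays both turned positive, at 0.02 for Hox genes and 0.03 for all probe sets, so neither has a settled sign. By cluster the medians were 0.42 for A, -0.08 for B, -0.12 for C and -0.21 for D.

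Hoxa5 patterns the neck and upper thorax and is needed for lung development in mice. Its log2 level was 6.30 in PRE16cl11_VII, 5.92 in PRP1cl11_VII, 6.45 in PRP4mo_bulk and 6.36 in PRP4mo_Cl09, the ungrafted TEC cultures. After the first transplantation it was 6.33 in Clone_217, 6.95 in Clone_218, 6.72 in Clone_57 and 6.94 in Clone_907, and after the second 6.99 in Clone_287, 7.06 in Clone_347, 6.57 in Clone_194 and 7.14 in Clone_354. In HF cultures it was 5.26 in YR219P5_RC and 4.76 in Clone_54 after grafting, and 4.89 in YR219P5_Bulk_V and 4.83 in YR219P5cl7 without. Every TEC culture, whatever its donor stage or state, lay above every HF culture. The difference averaged over states was 1.56 ± 0.15 (SE), or 2.94-fold, with adjusted p = 0.0002 by limma. It was past the threshold in all 11 alternative settings and with each of the 16 cultures left out, with the largest adjusted p, 0.033, in clonal cultures alone.

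Hoxa2 specifies the second pharyngeal arch and hindbrain segments. Its level was 5.39 in PRE16cl11_VII, 5.39 in PRP1cl11_VII, 5.86 in PRP4mo_bulk and 5.43 in PRP4mo_Cl09 before grafting. It was 5.27 in Clone_217, 5.66 in Clone_218, 5.12 in Clone_57 and 6.46 in Clone_907 after the first transplantation, and 6.03 in Clone_287, 5.10 in Clone_347, 4.42 in Clone_194 and 5.41 in Clone_354 after the second. The HF cultures read 4.07 in YR219P5_RC, 3.94 in Clone_54, 4.17 in YR219P5_Bulk_V and 4.10 in YR219P5cl7. The means of the 12 TEC cultures scattered widely and those of the 4 HF cultures hardly at all. The HF levels were low, where signals are compressed, and the arrays of YR219P5_RC alone read 4.28 and 3.87. The groups did not overlap, although the lowest TEC culture came near the HF cultures. The averaged difference was 1.50 ± 0.27, or 2.83-fold (limma, adjusted p = 0.0113). Without YR219P5_RC the adjusted p was 0.0535, and in clonal cultures alone 0.225.

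Hoxd4, a gene of the hindbrain boundary and the neck vertebrae, ran the other way. It was 4.11 in PRE16cl11_VII, 4.39 in PRP1cl11_VII, 4.18 in PRP4mo_bulk and 4.47 in PRP4mo_Cl09 before grafting. After the first transplantation it was 4.41 in Clone_217, 4.40 in Clone_218, 4.25 in Clone_57 and 4.39 in Clone_907, and after the second 4.24 in Clone_287, 4.40 in Clone_347, 4.49 in Clone_194 and 4.51 in Clone_354. The HF cultures read 4.73 in YR219P5_RC, 4.68 in Clone_54, 4.66 in YR219P5_Bulk_V and 4.59 in YR219P5cl7. All TEC cultures lay below all HF cultures, but within a narrow band. The averaged difference was -0.34 ± 0.08, or 1.26-fold lower in TEC (limma, adjusted p = 0.0337). The F test did not call Hoxd4 (adjusted p = 0.327), and its call held in 4 of 10 alternative settings. It was lost with arrays centred on their medians (-0.25, adjusted p = 0.0819), with quantile normalization (-0.24, adjusted p = 0.104), with single arrays and culture as a random block (adjusted p = 0.166), with a replicate block added (0.173), in clonal cultures alone (-0.30, adjusted p = 0.491), without array 1 of YR219P5_RC (-0.28, adjusted p = 0.0748) and without any of 8 of the 16 cultures, named in the closing section, with the direction kept.

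**Figure D2:**
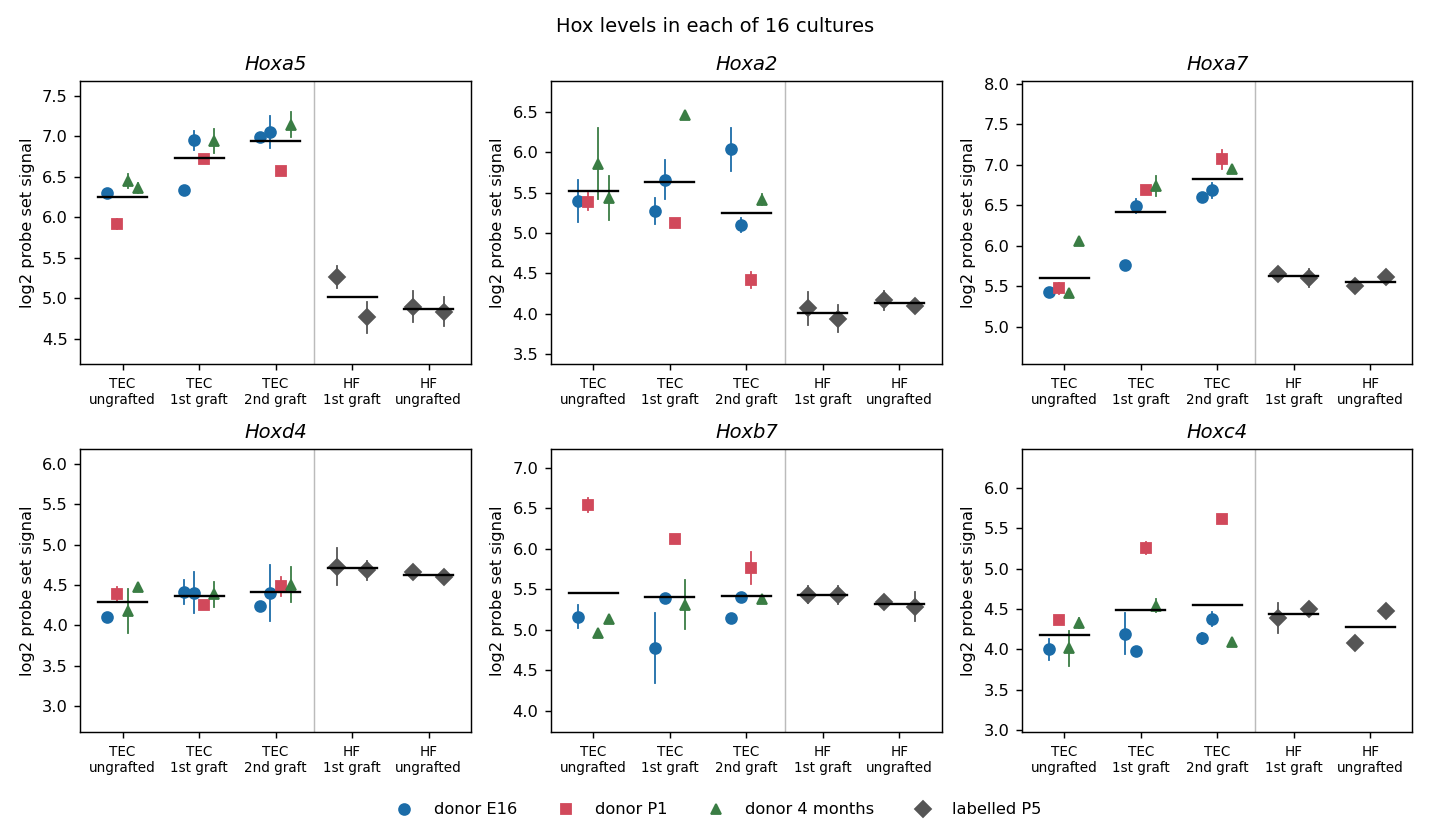
Log2 probe set signal of 6 Hox genes by group; each point is the mean of a culture, the thin vertical line joins its 2 arrays, the horizontal bar is the group mean, and colour and shape give the donor stage label. Hoxa5 and Hoxa2 separate TEC from HF cultures, Hoxa7 is high in grafted TEC cultures, Hoxb7 is high in the P1 cultures, and Hoxc4 is high in the grafted P1 cultures but not in the ungrafted one.

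Before grafting, the comparison of 4 TEC with 2 HF cultures gave 1 Hox call of 22, Hoxa5, against 1.55% of all probe sets. Hoxa2 was 1.38 ± 0.38 higher in TEC with adjusted p = 0.0964, and it passed in 3 of 11 alternative settings. Hoxa4, the neighbour of Hoxa5 in the cluster, was 0.27 ± 0.11 higher (adjusted p = 0.28). Hoxd4 was -0.34 ± 0.11 apart (adjusted p = 0.178), and its TEC and HF values did not overlap. Hoxa7 differed by 0.04 ± 0.25, with a 95% interval of -0.49 to 0.57. Hoxa5 passed in 10 of 11 alternative settings. The call of Hoxa5 before grafting was lost without YR219P5_Bulk_V (1.42, adjusted p = 0.0778).

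After grafting, Hoxa5 again separated the tissues. Once-grafted TEC exceeded once-grafted HF cultures by 1.72 ± 0.21, or 3.30-fold (limma, adjusted p = 0.00934), and twice-grafted TEC exceeded once-grafted HF cultures by 1.93 ± 0.21, or 3.80-fold (adjusted p = 0.00357). It was the only Hox gene called in either comparison, 1 of 22 against 0.0718% of all probe sets in the first and 0.0457% in the second. These comparisons share the HF cultures. Hoxa7 was 0.79 ± 0.25 higher in once-grafted TEC (adjusted p = 0.199) and 1.20 ± 0.25 higher in twice-grafted TEC (adjusted p = 0.0939), with no overlap of values in either. For Hoxa2 the differences were 1.62 ± 0.38 (adjusted p = 0.159) and 1.24 ± 0.38 (adjusted p = 0.132). The Hoxa5 call in once-grafted cultures was lost without YR219P5_RC (adjusted p = 0.0527) or without Clone_54 (0.0715), and the call in twice-grafted TEC without Clone_54 (0.0514). Of 11 alternative settings, 9 kept the Hoxa5 call in once-grafted TEC and 9 kept it in twice-grafted TEC. With only the compared groups in the fit, its adjusted p by limma in once-grafted TEC was 0.265. Centring the arrays moved the median of all probe sets in these comparisons from near -0.11 by 0.135 and 0.14.

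**Figure D3:**
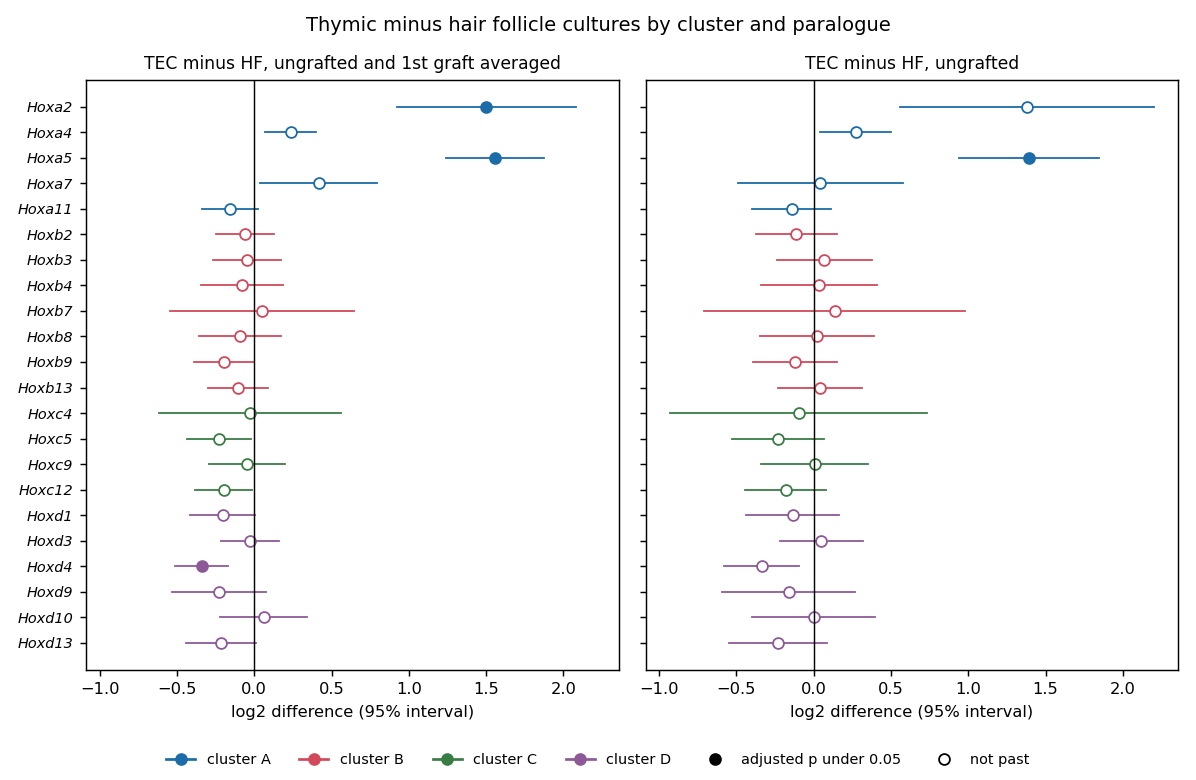
Difference between TEC and HF cultures for each Hox gene (log2 level, TEC minus HF, with its 95% interval), averaged over ungrafted and once-grafted states (left) and before grafting (right); colours mark the cluster and filled points an adjusted p under 0.05 by limma. Filled points are Hoxa2, Hoxa5 and Hoxd4 on the left and Hoxa5 on the right.

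Transplantation was examined within each tissue. In TEC cultures after the second transplantation Hoxa7 and Hoxa5 rose against ungrafted TEC, and no Hox gene fell. These 2 of 22 calls stood against 3.86% of all probe sets. Both lie in the middle of cluster A. The nearest measured genes on either side differed little, Hoxa4 by -0.01 ± 0.09 and Hoxa11 by 0.10 ± 0.10. Hoxa6, between Hoxa5 and Hoxa7, and Hoxa9 and Hoxa10, between Hoxa7 and Hoxa11, were not analysed. Hoxa11 read low, at 4.13 to 4.62 over all cultures. The median over the 22 genes was 0.05, and over all probe sets 0.01. Of 12 probe sets for thymic markers, 2 fell in this comparison, and the list median was -0.88. They were 1 probe set of Krt8 (-2.09 ± 0.54, limma, adjusted p = 0.0482) and that of the pouch gene Pax1 (-1.30 ± 0.34, adjusted p = 0.048). The other 10 did not pass. Among them, the second Krt8 probe set averaged 9.01 in twice-grafted against 11.24 in ungrafted TEC cultures. Foxn1 averaged 5.77 against 5.84, Dll4 5.04 against 4.94 and Psmb11 4.10 against 4.03. The follicle gene Lhx2 averaged 6.55 in twice-grafted and 5.53 in ungrafted TEC cultures, and 0 of 5 follicle and keratinocyte markers passed. The part of these markers in the Hox differences was not tested.

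Hoxa7 acts in the thoracic part of the axial skeleton. It was 5.43 in PRE16cl11_VII, 5.47 in PRP1cl11_VII, 5.42 in PRP4mo_bulk and 6.06 in PRP4mo_Cl09 before grafting. After the first transplantation it was 5.77 in Clone_217, 6.49 in Clone_218, 6.69 in Clone_57 and 6.74 in Clone_907, and after the second 6.60 in Clone_287, 6.68 in Clone_347, 7.07 in Clone_194 and 6.95 in Clone_354. The HF cultures read 5.65 in YR219P5_RC, 5.60 in Clone_54, 5.50 in YR219P5_Bulk_V and 5.61 in YR219P5cl7. All ungrafted TEC cultures but PRP4mo_Cl09 sat below the HF cultures, and every twice-grafted TEC culture sat above all ungrafted TEC and all HF cultures. The group means were 5.60 ± 0.31, 6.42 ± 0.45 and 6.82 ± 0.22 from ungrafted through once-grafted to twice-grafted TEC (SD, n = 4 each). After the second transplantation Hoxa7 was 1.23 ± 0.20 higher, or 2.34-fold (limma, adjusted p = 0.00904). That call held with each of the 16 cultures left out in turn and was lost in clonal cultures alone (1.13, adjusted p = 0.123).

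Hoxa5 was 0.68 ± 0.17 higher after the second transplantation, or 1.61-fold (limma, adjusted p = 0.0434), and its twice-grafted and ungrafted values did not overlap. This call was lost without any of 7 of the 16 cultures, with adjusted p between 0.0659 and 0.108 and differences between 0.57 and 0.75. The 7 were all 4 ungrafted TEC cultures and Clone_287, Clone_347 and Clone_354. The call held in 8 of 11 alternative settings, and the largest adjusted p was 0.195 by limma, in clonal cultures alone. Hoxa2 differed by -0.28 ± 0.31 (adjusted p = 0.705), with overlapping values.

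After the first transplantation 0 of 22 Hox genes passed in TEC cultures, against 0.516% of all probe sets, and 2 had an unadjusted p under 0.05, as had 2270 of the 15316 probe sets. They were Hoxa7, at 0.82 ± 0.20 (adjusted p = 0.0907), and Hoxa5, at 0.48 ± 0.17 (adjusted p = 0.215). Hoxa7 passed with the donor stage in the model (0.93, adjusted p = 0.033) and without Clone_217, the once-grafted culture with the lowest value (1.04, adjusted p = 0.0425). Between the second and the first transplantation limma called 0 Hox genes, and 0% of all probe sets, with 0 Hox genes at an unadjusted p under 0.05. Hoxa7 there differed by 0.40 ± 0.20, and the values of the groups overlapped. The first, second and between-graft comparisons share cultures.

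In HF cultures 0 of 22 Hox genes and 0% of all probe sets passed after transplantation, and 0 Hox genes had an unadjusted p under 0.05. Hoxa7 differed by 0.07 ± 0.29, with a 95% interval of -0.55 to 0.69, and Hoxa5 by 0.15 ± 0.24, with a 95% interval of -0.37 to 0.67. The difference between the tissues in the change of Hoxa7 was 0.75 ± 0.35, with a 95% interval that reached up to 1.51 and down to just below 0 (adjusted p = 0.827 by limma). Across all 22 genes 0 interaction terms passed, as for 0% of all probe sets. The HF groups hold 2 cultures each, which limits these tests.

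**Figure D4:**
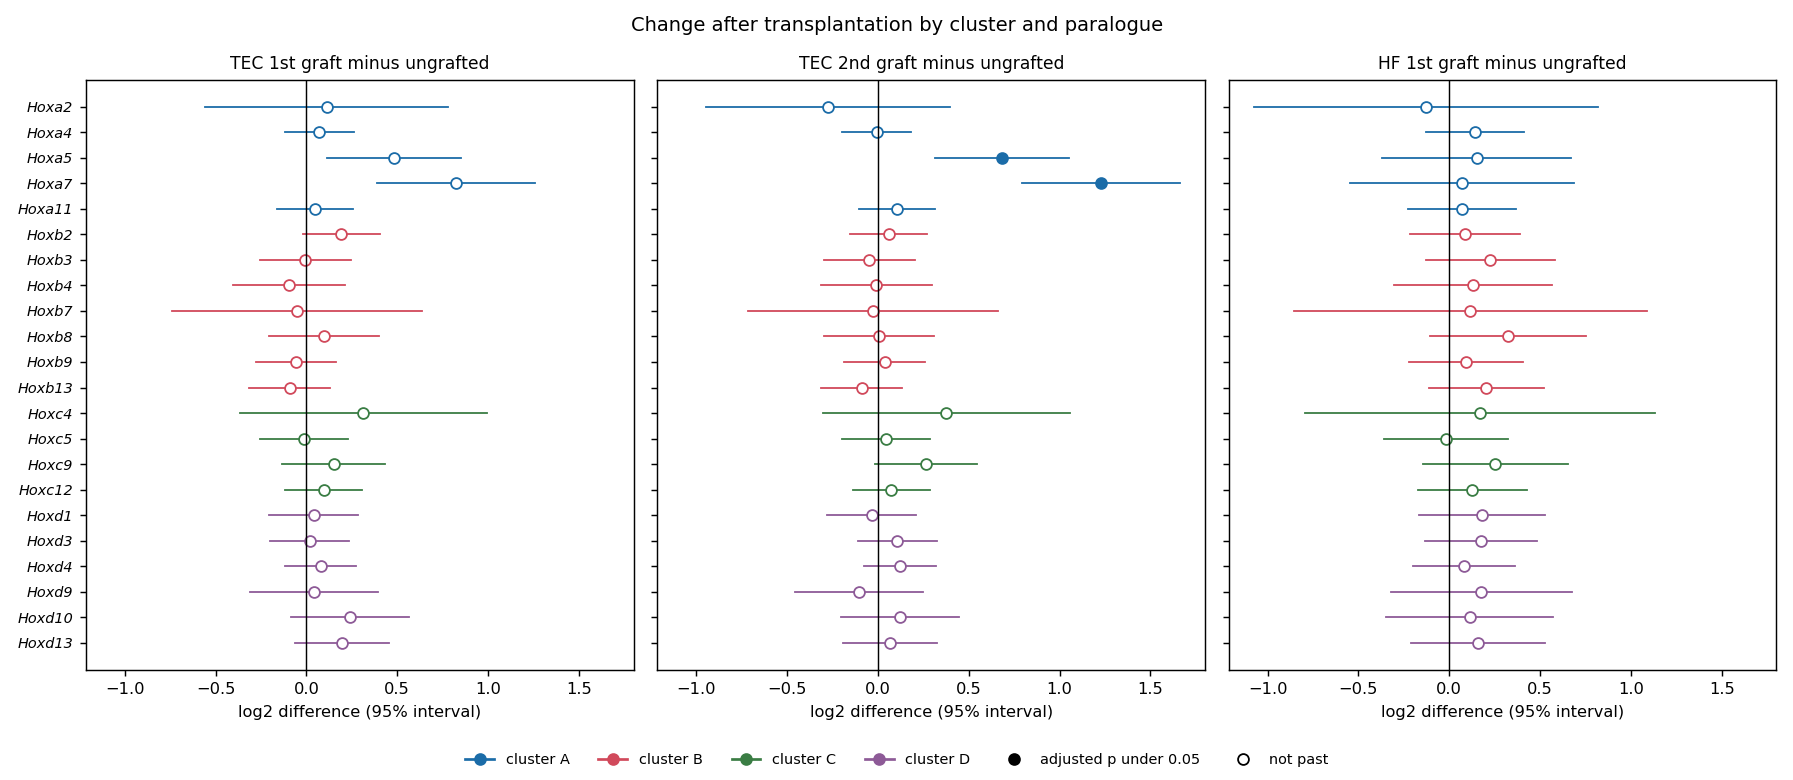
Change after transplantation for each Hox gene (log2 level, grafted minus ungrafted, with its 95% interval) in TEC cultures after the first and the second transplantation and in HF cultures after the first; filled points have an adjusted p under 0.05 by limma. The filled points are Hoxa5 and Hoxa7 after the second transplantation of TEC.

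Donor stage was compared among the 12 TEC cultures in a model that also held a term for transplantation. In P1 cultures Hoxb7 and Hoxc4 were higher than in E16 cultures, and the other 20 Hox genes did not pass. The 2 of 22 calls stood against 6.08% of all probe sets. Both probe sets of the thymic marker Krt8 were lower in P1 cultures (-1.68 ± 0.37, limma, adjusted p = 0.0311, and -1.99 ± 0.43, adjusted p = 0.0287), and their part in the Hox differences was not tested. The 4-month cultures differed from E16 cultures in 0 of 22 Hox genes, against 0.0914% of all probe sets, with 1 Hox gene, Hoxa7, at an unadjusted p under 0.05 (0.44 ± 0.18, adjusted p = 0.406), as for 1704 of the 15316 probe sets.

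Hoxb7 belongs to the trunk genes and is active in the developing kidney duct. It was 6.54 in PRP1cl11_VII, 6.12 in Clone_57 and 5.76 in Clone_194, the P1 cultures. The E16 cultures read 5.16 in PRE16cl11_VII, 4.77 in Clone_217, 5.39 in Clone_218, 5.14 in Clone_287 and 5.40 in Clone_347, and the 4-month cultures 4.96 in PRP4mo_bulk, 5.13 in PRP4mo_Cl09, 5.31 in Clone_907 and 5.38 in Clone_354. The HF cultures read 5.43 in YR219P5_RC, 5.43 in Clone_54, 5.34 in YR219P5_Bulk_V and 5.28 in YR219P5cl7. All P1 cultures lay above the 13 others, in every transplantation state. The P1 mean was 6.14 ± 0.39 (SD, n = 3) and the E16 mean 5.17 ± 0.26 (n = 5), and the fitted difference was 0.96 ± 0.20, or 1.95-fold (limma, adjusted p = 0.0268). The nearest measured genes of the cluster differed less, Hoxb8 by 0.06 ± 0.14, Hoxb9 by 0.09 ± 0.11 and Hoxb4 by 0.30 ± 0.14 (limma, adjusted p = 0.26). Hoxb5 and Hoxb6, which lie between Hoxb4 and Hoxb7, were not analysed. Hoxb8 read low, at 3.93 to 4.74 over all cultures, and so did Hoxb9, at 3.30 to 3.90. The call of Hoxb7 was lost without PRE16cl11_VII, PRP1cl11_VII, Clone_217 or Clone_57, with adjusted p up to 0.206.

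Hoxc4 acts in the neck and upper thorax. It was 4.37 in PRP1cl11_VII, 5.25 in Clone_57 and 5.61 in Clone_194, the P1 cultures. The E16 cultures read 4.00 in PRE16cl11_VII, 4.20 in Clone_217, 3.98 in Clone_218, 4.14 in Clone_287 and 4.38 in Clone_347, and the 4-month cultures 4.01 in PRP4mo_bulk, 4.33 in PRP4mo_Cl09, 4.54 in Clone_907 and 4.09 in Clone_354. The HF cultures read 4.39 in YR219P5_RC, 4.50 in Clone_54, 4.08 in YR219P5_Bulk_V and 4.47 in YR219P5cl7. The grafted P1 cultures stood above every other culture, whereas the ungrafted P1 culture lay inside the range of the rest. The fitted difference between P1 and E16 was 0.99 ± 0.20, or 1.99-fold (limma, adjusted p = 0.0256). Its neighbour Hoxc5 differed by 0.17 ± 0.09 (adjusted p = 0.354). The call was lost without Clone_217, Clone_57 or Clone_194, with adjusted p up to 0.217. The labels do not say whether the P1 cultures share a donor, and donor and stage cannot be told apart.

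Over the 11 comparisons together, 6 of the 22 Hox genes were called at least once, against 13.3% of all probe sets. They were 3 of the 9 measured genes of paralogue groups 1 to 4 (Hoxa2, Hoxc4 and Hoxd4), 3 of the 5 of groups 5 to 8 (Hoxa5, Hoxa7 and Hoxb7) and 0 of the 8 of groups 9 to 13, and the difference between these groups was not tested. The levels of the posterior members lay between 3.16 and 5.54. Hoxd10, a gene of the lumbar region and the limbs, had the largest range among them. It was 4.94 in Clone_217 and lay between 4.11 (Clone_54) and 4.56 (Clone_347) in the other 15 cultures, with 4.16 in PRE16cl11_VII, 4.21 in PRP1cl11_VII, 4.13 in PRP4mo_bulk and 4.34 in PRP4mo_Cl09. It was 4.17 in Clone_218, 4.25 in Clone_57 and 4.44 in Clone_907, and 4.29 in Clone_287, 4.26 in Clone_194 and 4.22 in Clone_354. The HF values were 4.53 in YR219P5_RC, 4.27 in YR219P5_Bulk_V and 4.16 in YR219P5cl7. The highest value belonged to a once-grafted E16 clone. Hoxc9 ranged over 0.686, from 3.16 in Clone_907 to 3.85 in Clone_287. Among the genes of low level range, Hoxb8 had its highest level, 4.74, and Hoxb3, 6.92, in YR219P5_RC.

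Known partners and regulators of Hox genes were read from fixed lists. Of all probe sets, 1.55% were called before grafting, 4.17% averaged over states and 6.08% in P1 against E16 cultures. After transplantation of TEC the shares were 0.516% (first) and 3.86% (second), and in HF cultures 0%. The lists are short, so 0 or 1 calls say little about a list. Of the cofactors Pbx, Meis and Pknox, 7 of 9 were measured. Meis2 was 1.70 ± 0.42 higher in TEC than in HF cultures averaged over states, or 3.24-fold (limma, adjusted p = 0.0392), and was the 1 cofactor of 7 called there. No cofactor passed after transplantation of either tissue. Meis1 was lower in P1 than in E16 TEC cultures (-1.01 ± 0.22, adjusted p = 0.0291). Of the inducers and retinoid genes, 16 of 21 were measured and 1 passed between tissues, a share near that of all probe sets averaged over states. It was Crabp2, which carries retinoic acid to its nuclear receptors. Crabp2 was 2.02 ± 0.40 higher in TEC before grafting, or 4.06-fold (limma, adjusted p = 0.0263), and 1.61 ± 0.28 higher averaged over states. Rarg, a nuclear retinoic acid receptor of epithelia, was 1.02 ± 0.26 higher in TEC after the second transplantation (adjusted p = 0.047). In P1 cultures Cyp26b1, which degrades retinoic acid, was 1.12 ± 0.26 higher (adjusted p = 0.0363), and Crabp2 (-0.83 ± 0.20) and the receptor Rxrb (-0.81 ± 0.12) were lower.

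Of the Polycomb and Trithorax genes, 16 of 21 were measured. None passed between tissues, where 1.55% of all probe sets were called before grafting and 4.17% averaged over states, so 0 of 16 says little. Men1, a subunit of complexes that keep Hox genes active, was 0.43 ± 0.11 higher in TEC after the second transplantation (limma, adjusted p = 0.0482), and Ezh1, a Polycomb histone methyltransferase, was lower in P1 cultures (-1.24 ± 0.31, adjusted p = 0.0474). Each was the 1 call of 16 in its comparison, near the share of all probe sets (3.86% and 6.08%). Among other positional transcription factors 21 of 32 were measured. Emx2, which patterns the forebrain and the urogenital tract, was 2.12 ± 0.30 higher in TEC before grafting, or 4.35-fold (adjusted p = 0.00499), and 1.77 ± 0.21 higher averaged over states, the 1 call of 21 in each, a share near that of all probe sets averaged over states (4.17%). Otx1, a head gene, was 0.67 ± 0.15 higher in TEC after the second transplantation (limma, adjusted p = 0.0263), the 1 call of 21, against 3.86% of all probe sets. In P1 cultures the hindlimb gene Pitx1 was 1.40 ± 0.30 higher (limma, adjusted p = 0.0298) and the skin patterning gene Tbx15 lower (-1.92 ± 0.45, adjusted p = 0.0358). These were 1 call higher and 1 lower of 21, against 6.08% of all probe sets.

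Genes beside the Hox clusters were compared to see whether differences ran past the cluster ends. Of 21 listed, 12 were measured. Of all probe sets, 4.17% were called averaged over states, 3.86% after the second transplantation of TEC and 6.08% in P1 against E16 cultures. In the order of the GRCr8 annotation, Lnpk lies beyond Evx2 at the Hoxd13 end of cluster D. It was lower in TEC than in HF cultures averaged over states (-0.52 ± 0.13, limma, adjusted p = 0.0463). After the second transplantation it was 0.66 ± 0.16 higher in TEC (limma, adjusted p = 0.0344), the 1 call of 12 there. Hoxd13 itself was called in neither comparison. It differed by -0.21 ± 0.10 (limma, adjusted p = 0.236) averaged over states and by 0.07 ± 0.12 (adjusted p = 0.839) after the second transplantation. Hibadh, beyond Evx1 at the Hoxa13 end of cluster A, was lower in P1 cultures (-0.86 ± 0.15, limma, adjusted p = 0.0157), the 1 call of 12 there. Hibadh was not called after transplantation or between tissues. Hoxa13 was not analysed, so Hibadh cannot be read beside the end gene of its cluster.

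All cultures were grown on mouse fibroblasts, and fibroblasts express Hox genes, so fibroblast markers were read beside the results, of which 21 of 22 were measured. None of the 21 passed between tissues, before grafting or averaged over states. Of all probe sets 1.55% and 4.17% were called there, so 0 of 21 says little about fibroblast content. After the second transplantation of TEC 2 of 21 were lower, against 3.86% of all probe sets called in either direction. They were S100a4 (-1.70 ± 0.31, limma, adjusted p = 0.0134) and Twist1 (-1.21 ± 0.24, adjusted p = 0.0177). In P1 against E16 cultures Sparc was lower (-1.87 ± 0.42, limma, adjusted p = 0.0326) and Col5a1 higher (0.48 ± 0.11, adjusted p = 0.0326). Of all probe sets 6.08% were called in that comparison. The mean level of the list lay between 6.06 and 6.54 in ungrafted, 5.77 and 5.89 in once-grafted and 5.69 and 5.85 in twice-grafted TEC cultures, and between 5.85 and 6.03 in grafted and 5.96 and 6.54 in ungrafted HF cultures. The list mean was lower in all grafted than in all ungrafted TEC cultures. It overlapped between the tissues in ungrafted and in once-grafted cultures, and in twice-grafted TEC cultures it lay just below grafted HF cultures. Single markers differed in spread: over the 16 cultures Sparc lay between 6.99 and 11.86, Vim between 6.85 and 11.81 and Tagln between 4.91 and 9.27, while the collagen Col1a1 lay between 6.58 and 7.23 and Dcn between 3.47 and 4.41. The 6 haematopoietic markers gave 0 calls in any comparison, against 13.3% of all probe sets called at least once, with list means between 3.85 and 4.48. Cd68, 1 of the 6, averaged 5.80 in ungrafted, 7.12 in once-grafted and 6.79 in twice-grafted TEC cultures. In HF cultures Cd68 averaged 5.54 without grafting and 5.39 after it. The part of feeder cells in the Hox levels was not tested, and a lower share of cells of a type cannot be told apart from less RNA per cell.

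Genes whose level followed Hoxa5 most closely over the 16 cultures were picked by Pearson correlation among 4818 probe sets with a range of at least 1. They were RT1-T24-1 (r = 0.931), B4galnt1 (0.892), Plekha3 (0.890), Bmp3 (0.887) and Steap2 (0.868). The points fall into TEC and HF groups, and within the 12 TEC cultures the values were 0.491 for RT1-T24-1, 0.260 for B4galnt1, 0.787 for Plekha3, 0.756 for Bmp3 and 0.615 for Steap2. Bmp3, a secreted factor of the BMP family, averaged 6.91 in TEC and 4.74 in HF cultures.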

How the data were processed

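Total RNA of 16 rat cultures was measured on Affymetrix gene arrays, 2 arrays per culture. Per the submitters' processing notes, the authors made the deposited log2 values by RMA in Affymetrix Expression Console; the version, background setting and genome build are not given in the sources used here. RMA fits probes over all arrays together, so levels are relative and low signals are compressed. The table held 29215 probe sets, of which 15316 listed exactly 1 gene symbol, 317 several and 13582 none in the annotation used. All 22 Hox probe sets matched RefSeq by Entrez gene with the same symbol.

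Both arrays of a culture were averaged, since the array number only marks repeats of 1 culture. Differences were tested on the 16 culture means with limma 3.58.1 in R 4.3.3 (lmFit and eBayes, 5 groups sharing 1 spread), with Benjamini-Hochberg adjustment over the 15316 probe sets and a threshold of 0.05. For donor stage the fit held the 12 TEC cultures and a covariate for transplantation. The code was tested on simulated data. Values in every culture are given for Hoxa2, Hoxa5, Hoxa7 and Hoxd4, for genes called in any comparison and for the 6 of largest range, and list members are named when called, up to 4 per list and comparison. One result on a gene beside a cluster is not reported here. The members, gene lists and tests were chosen with earlier results of these data known. Alternatives covered scaling, a filter on dim probe sets, the unit, the samples in the fit, donor stage, clonality and each culture left out. An array has no count depth, and the number of cultures limits the precision.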

Additional observations from a re-analysis of the deposited data

Results flagged for a closer look

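In 66 sets of 4 TEC cultures (22 Hox genes in 3 states), 4 held a culture whose distance from its nearest neighbour was too large a share of the range of the set by Dixon's 95% limit for 4 values. Chance alone flags about 1 in 20 such sets. Among ungrafted TEC cultures, Hoxa2 was 5.86 in PRP4mo_bulk and 5.39 to 5.43 in the others, and its arrays disagreed, at 5.42 and 6.30. Hoxa7 was 6.06 in PRP4mo_Cl09 and 5.42 to 5.47 in the others, with arrays at 6.11 and 6.02. Hoxb7 was 6.54 in PRP1cl11_VII and 4.96 to 5.16 in the others, with arrays at 6.62 and 6.46, and this is the P1 clone of that state. Among twice-grafted TEC cultures, Hoxb9 was 3.43 in Clone_287 and 3.64 to 3.67 in the others, with arrays at 3.34 and 3.53.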

How the results depend on the processing

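Direction under the alternatives was followed for the called Hox differences and for some uncalled ones of Hoxa2, Hoxa7 and Hoxd4. None of these changed direction, but they were large beside the shifts from scaling. Small differences could change: centring moved every difference averaged over states by 0.09. Those of Hoxb3 (-0.05) and Hoxd3 (-0.03) thereby turned positive. The median over the 22 genes also changed direction. Averaged over states it was -0.07 and turned to 0.02 with centred arrays. For twice-grafted TEC against once-grafted HF it was -0.13 and turned to 0.01. For the interaction of tissue and transplantation it was -0.05, and 0.04 with centred arrays, 0.05 with quantile normalization and 0.03 without array 1 of YR219P5_RC; before grafting and after transplantation of either tissue it stayed positive under these scalings. The number of Hox genes called moved as follows. Before grafting (1 in the main setting) it was 2 when single arrays were fitted and cultures entered as a random block, 2 with the array number as a replicate block as well, 2 with only the compared groups in the fit, 0 in clonal cultures alone, and 0 to 1 with a culture left out. Averaged over states (3) it was 2 with probe sets of a mean of at least 5, which drops Hoxd4, 2 without array 1 of YR219P5_RC, 1 in clonal cultures and 1 to 3 with a culture left out. The 3 genes were not always the same: Hoxa4 took the place of Hoxd4 with centred arrays and with quantile normalization, and Hoxa7 did with the random block and the replicate block. For the first transplantation of TEC (0) it was 1 with the random block, 1 with the replicate block, 1 with donor stage in the model and 0 to 1 with a culture left out. For the second (2) it was 1 with all deposited probe sets in the adjustment, 1 with only the compared groups, 0 in clonal cultures and 1 to 2 with a culture left out. For once-grafted TEC against once-grafted HF (1) it was 3 with the random block, 3 with the replicate block, 0 with only the compared groups, 0 in clonal cultures and 0 to 1 with a culture left out. For twice-grafted TEC against once-grafted HF (1) it was 2 with centred arrays, 3 with the random block, 3 with the replicate block, 0 with only the compared groups, 2 with donor stage, 0 in clonal cultures and 0 to 2 with a culture left out. For P1 against E16 (2) it was 1 with probe sets of a mean of at least 5, which drops Hoxc4, and 0 to 2 with a culture left out. The F test (7) called 4 with that filter, which keeps 9 of the 22 genes. The array number marks repeats of 1 culture and pairs no cultures, so the replicate block tests no pairing: under it Hoxa7 after the second transplantation had adjusted p = 3.42e-06 and Hoxd4 averaged over states 0.173.

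The averaged call of Hoxd4 was lost without PRE16cl11_VII, PRP4mo_bulk, Clone_218, Clone_907, YR219P5_Bulk_V, YR219P5cl7, YR219P5_RC or Clone_54 (adjusted p between 0.053 and 0.13). Over all probe sets the calls before grafting numbered 977 with the random block, 944 with the replicate block, 4 in clonal cultures and 18 at the fewest with a culture left out, against 238. After the first transplantation of TEC they numbered 1183 with the random block, 1132 with the replicate block, 143 with donor stage and 8 to 148 with a culture left out, against 79. In clonal cultures they numbered 15, against 639, averaged over states, and 35, against 591, after the second transplantation. Once-grafted TEC against once-grafted HF gave 249 and 219 with those blocks, against 11, and twice-grafted TEC gave 721 and 670, against 7, and 91 with centred arrays. With a culture left out the calls over all probe sets numbered 112 to 903 averaged over states, 149 to 674 after the second transplantation of TEC, 0 to 12 and 0 to 450 for once-grafted and twice-grafted TEC against HF, and 4 to 1599, against 931, for P1 against E16. They split into 171 higher and 61 lower in TEC before grafting with centred arrays, against 148 and 90, and into 85 and 6 for twice-grafted TEC against once-grafted HF, against 5 and 2. With centred arrays the averaged calls split into 622 higher and 147 lower in TEC, against 321 and 318, and without array 1 of YR219P5_RC, a setting added after seeing the data, into 338 and 198. The clonal fit rests on 11 cultures, and the cause of the other changes was not tested. Signals near the bottom of the scale limit what low Hox genes can show.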
